A study of Mus musculus with 6 samples.

Results

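The 36 genes described here encode the machinery of autophagy and the lysosome, and they were taken by symbol from the gene table, where each symbol stood on 1 row of the 21686 genes listed. They were measured in MC3T3-E1 Subclone 14, a mouse osteoblast precursor line that is a single subclone. The control cells received 100 µL of PBS, the dexamethasone cells 10 µM dexamethasone, a synthetic glucocorticoid, and the dexamethasone + EPC-EVs cells 10 µM dexamethasone together with 100 µg of extracellular vesicles from endothelial progenitor cells, each for 72 hours. The series text differs from these sample labels in naming fibroblasts and a shorter exposure, and the labels were used. The third group therefore carried dexamethasone as well. Each group had 2 RNA-seq libraries, which the study calls biological replicates. The labels do not say that they came from separate cultures, so the p-values below measure only the spread between these libraries.

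In autophagy, a kinase complex and a lipid kinase complex start a membrane on which small ubiquitin-like proteins of the Atg8 family are fixed to lipid by a conjugation system. Cargo receptors bind these proteins and bring material into the closing autophagosome, which then fuses with the lysosome, where acid hydrolases digest the content. The transcription factors TFEB and TFE3 switch on many lysosomal and autophagy genes when they enter the nucleus, and the kinase mTORC1 at the lysosomal surface holds them back. Osteoblasts use the pathway during mineralization and under glucocorticoid exposure. The values here are RNA levels and do not measure the flow of material through the pathway.

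The deposited counts summed to between 5146760 and 6583735 in the control and dexamethasone libraries and to 12864009 and 13182014 with vesicles. CPM, the unit of the levels given here, are counts scaled to a common total after TMM normalization of the 6 libraries. A gene with no count could still lie at up to 3 counts, which is 0.228 to 0.583 CPM by counting error alone, and no member was at 0 in any library. Mitochondrially encoded genes took 5.55% to 8.62% of the counts in the control and dexamethasone libraries and 0.465% to 0.727% in the dexamethasone + EPC-EVs libraries. The mean GC content of the transcripts, weighted by their counts, was 47.9% to 49.3% in the former 4 libraries and 51.6% in both of the latter. The 8 osteoblast markers summed to 5575 to 6887 CPM in the former and to 23124 and 18982 CPM in the latter, mostly from Col1a1, Col1a2 and Sparc, while Alpl and Bglap were at 0 in dexamethasone replicate 2. Of 9 endothelial markers 6 were in the table, with Cdh5, Tek and Emcn at 0 in most libraries, and their sum of 242.6 to 416 CPM was nearly all Cd34. The 5 macrophage markers of 9 in the table summed to 13.7 to 20.1 CPM in 5 libraries and 55.4 CPM in dexamethasone + EPC-EVs replicate 2. With counts thinned to the lowest total, and with mitochondrially encoded genes left out, the members called numbered 0, 20 and 17 in the 3 comparisons below, as in the counts reported. GC content is taken up below, and the part of the marker genes in the results was not tested. The differences in total, mitochondrial share and GC content run together with the addition of vesicles. In the comparisons with vesicles, an effect of the vesicles and a difference between libraries therefore cannot be told apart. In bulk RNA fewer cells of a type and less RNA per cell cannot be told apart.

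All 36 members passed the filter on low counts in every comparison. Their counts together made up between 0.505% and 0.576% of each library. FPKM, which divide the counts by gene length and library total and so allow levels to be compared between genes, placed Lamp1, a main glycoprotein of the lysosomal membrane, first in all 3 groups, with 362 ± 18.6 FPKM in control, 308 ± 14.3 with dexamethasone and 322 ± 31.1 with vesicles added (SD, n = 2). Tfeb was last in control, with 0.647 ± 0.345 FPKM (SD, n = 2), and last in dexamethasone. The protease gene Ctsd moved from rank 10 of the 36 in control to rank 2 in dexamethasone + EPC-EVs, where it reached 218 ± 10.9 FPKM (SD, n = 2). Lamp2 moved from rank 4 to rank 13 and Uvrag from rank 21 to rank 11.

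**Figure D1:**
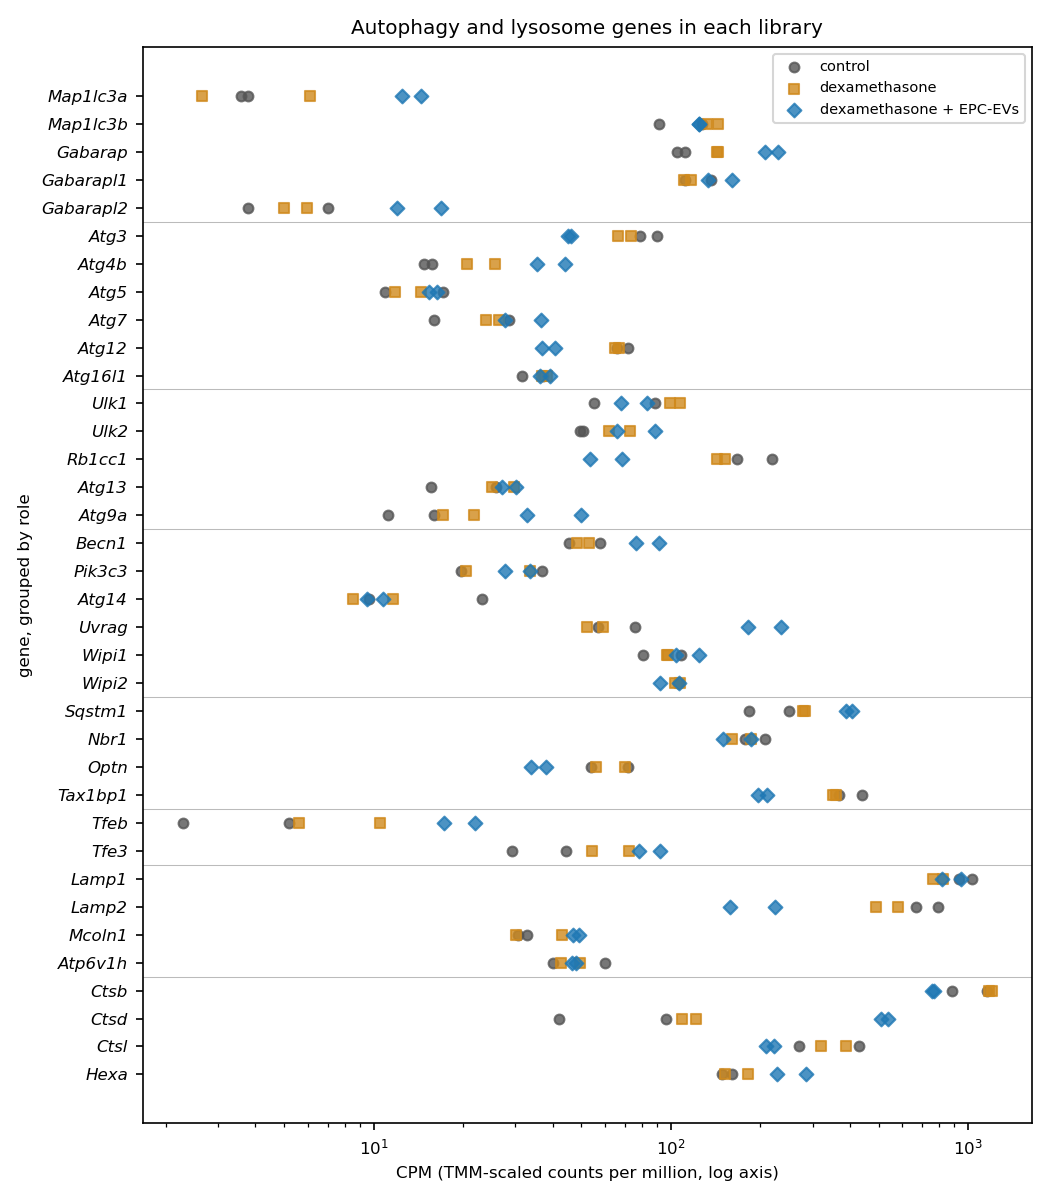
Level of each of the 36 genes in each of the 6 libraries, as CPM on a log axis, with genes grouped by role and 1 point per library. CPM, which are not scaled for gene length, run from Tfeb and Map1lc3a, at most 21.98 CPM in every library, to Lamp1 and Ctsb, at 758 CPM or more, and the dexamethasone + EPC-EVs points stand apart from the other 4 libraries for Ctsd, Uvrag, Lamp2 and Rb1cc1.

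Dexamethasone alone changed none of the 36 genes past the threshold. Against control, edgeR's quasi-likelihood test called 0 of 36 at an adjusted p under 0.05, adjusted over all genes tested. DESeq2 also called 0, but only 4807 genes counted as tested there, and Map1lc3a and Tfeb had no adjusted p. Other members with low counts may have lacked one too, so the 0 from DESeq2 may not cover all 36. Among all 12879 genes tested 7 were called, 0.0544%. At an unadjusted p under 0.05 there were 7 members, 19.4%, against 10.9% of all genes, namely Gabarap, Ulk1, Tfe3 and Ctsd with higher levels and Rb1cc1, Lamp1 and Lamp2 with lower levels in dexamethasone. The libraries of the groups did not overlap for 11 members that were higher in dexamethasone, against 22.8% of all genes in this direction, and for 5 that were lower, against 21.2%. The median log2 fold change was 0.03 for the members and 0.01 for all genes. The result rested on control replicate 1: without it 11 members were called, 30.6% against 16% of all genes in that fit, 7 higher (Map1lc3b, Ulk1, Sqstm1, Tfe3, Ctsb, Ctsd and Ctsl) and 4 lower (Rb1cc1, Atg14, Lamp1 and Lamp2), with the single remaining control library assumed to vary like the dexamethasone group. Leaving out any of the other libraries called 0.

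With EPC-EVs added to dexamethasone, genes of the pathway changed in both directions. Against dexamethasone alone, 20 of the 36 members were called, 55.6%, where 39.8% of all 13556 genes tested were. Of these, 11 were higher in dexamethasone + EPC-EVs, 30.6% against 20.9% of all genes, and 9 were lower, 25% against 18.9%. With a log2 fold change beyond 1 there were 6 higher and 2 lower members, 22.2% of the 36 against 23.5% of all genes, so that the larger changes were about as frequent as in the whole table. The study's own cut for genes, a log2 fold change beyond 1.5 at an unadjusted p under 0.05, was passed by 4 members, 11.1% against 14.2% of all genes. The libraries did not overlap for 17 members that were higher with vesicles, against 38.5% of all genes, and for 10 that were lower, against 34%. The members had a median log2 fold change of 0.14 and all genes one of 0.01. In these shares, all genes were not matched to the members for level. Without dexamethasone replicate 2, 8 members were called, 22.2% against 22.3% of all genes in that fit, namely Uvrag and Ctsd as higher and Atg12, Rb1cc1, Tax1bp1, Lamp2, Ctsb and Ctsl as lower, and without the other libraries in turn between 15 and 18. With all 6 libraries in 1 fit 16 were called, 44.4% against 30.5% of all genes. Without dexamethasone replicate 1 the calls of Gabarap, Atg4b, Ulk1, Becn1 and Sqstm1 were lost, without dexamethasone + EPC-EVs replicate 1 those of Map1lc3a, Gabarapl2 and Ulk1, and without its replicate 2 those of Atg4b, Atg9a and Tfeb.

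**Figure D2:**
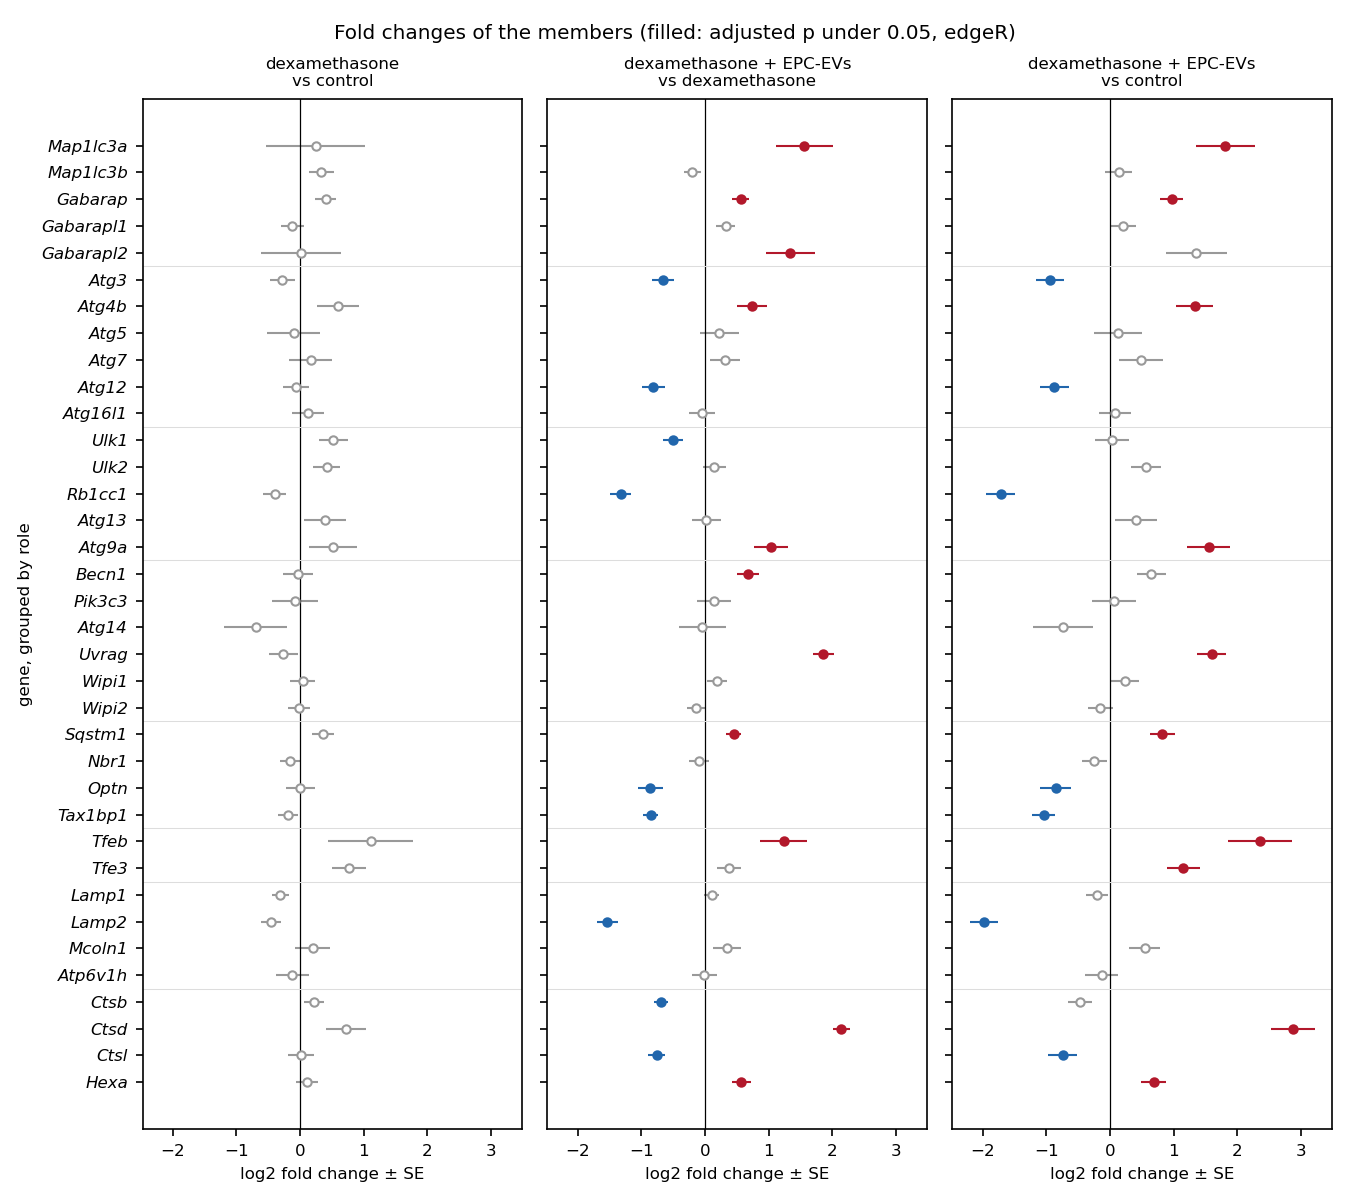
Log2 fold changes with their standard errors from edgeR for the 36 genes in the 3 comparisons, grouped by role, with filled points for an adjusted p under 0.05 (red higher, blue lower in the group named first). No point is filled for dexamethasone against control, 20 are filled for dexamethasone + EPC-EVs against dexamethasone and 17 against control, and the 3 comparisons share libraries.

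Against control, which differs by both agents, dexamethasone + EPC-EVs had 17 called members, 47.2% against 36.4% of all 13511 genes tested. There were 10 higher, 27.8% against 19.1%, and 7 lower, 19.4% against 17.2%. Libraries did not overlap for 15 higher members, against 39.1% of all genes, and for 8 lower members, against 33.9%. The members had a median log2 fold change of 0.17 and all genes one of 0.02. Without dexamethasone + EPC-EVs replicate 2, 9 members were called, 25% against 24.6% of all genes in that fit, 6 higher and 3 lower, and the calls of Map1lc3a, Atg3, Atg4b, Atg12, Atg9a, Optn, Ctsl and Hexa were lost. Without the other libraries in turn between 12 and 19 were called. This comparison shares its libraries with the other two, so its values are given beside theirs and are not a repeat of them.

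The initiation complex holds the kinases ULK1 and ULK2, the adaptor ATG13 and the scaffold encoded by Rb1cc1, and ATG9A is the membrane protein whose vesicles seed the autophagosome. Rb1cc1 measured 168 and 219 CPM in the control libraries, 152 and 143 in dexamethasone, and 53.3 and 68.4 in dexamethasone + EPC-EVs. Both libraries with vesicles lay below the other 4. Rb1cc1 fell by 1.32 on the log2 scale against dexamethasone (SE 0.164, adjusted p = 9.02e-05, edgeR's quasi-likelihood test) and by 1.72 against control (SE 0.229, adjusted p = 0.00108, same test). With the trend on GC content and length described below removed, the values were smaller, at -0.56 and -0.655. Both were still called (adjusted p = 0.0152 and 0.0256, same test).

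Atg9a went the other way, with 15.96 and 11.1 CPM in control, 21.8 and 17.1 in dexamethasone, and 32.9 and 49.8 in dexamethasone + EPC-EVs. The 3 groups did not overlap. Its log2 fold change was 1.04 against dexamethasone (SE 0.264, adjusted p = 0.00866, edgeR) and 1.55 against control (SE 0.338, adjusted p = 0.00841). Both calls were lost with the GC and length trend removed, at 0.49 (adjusted p = 0.18, edgeR) and 0.75 (adjusted p = 0.11). Exons of Atg9a share 1832 bases with Gm29253 on the same strand, so that part of its counts is uncertain.

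Ulk1 measured 88.3 and 54.9 CPM in control, 108 and 99.4 in dexamethasone, and 67.7 and 83.3 in dexamethasone + EPC-EVs. The dexamethasone libraries were the highest, and those of the other groups overlapped. Ulk1 fell by 0.50 against dexamethasone (SE 0.163, adjusted p = 0.0291, edgeR), a call that was lost without either dexamethasone library or without dexamethasone + EPC-EVs replicate 1. It differed from control by 0.03 (SE 0.266, adjusted p = 0.95). With the GC and length trend removed it was called lower in both, at -1.16 against dexamethasone and -0.93 against control (adjusted p = 3.12e-04 and 0.0169, edgeR). Ulk2 and Atg13 were called in none of the comparisons as counted.

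The lipid kinase complex consists of the catalytic subunit encoded by Pik3c3, the scaffold Beclin 1, encoded by Becn1, and either ATG14, for autophagosome formation, or UVRAG, which acts in endosome and autophagosome maturation. Uvrag measured 57.0 and 76.0 CPM in control, 59.0 and 52.4 in dexamethasone, and 182 and 235 in dexamethasone + EPC-EVs. The libraries with vesicles were the 2 highest by a wide margin, and the other groups overlapped. Uvrag had a log2 fold change of 1.86 against dexamethasone (SE 0.167, adjusted p = 1.04e-05, edgeR) and 1.60 against control (SE 0.232, adjusted p = 0.0015), and -0.26, not called, in dexamethasone against control (adjusted p = 0.714).

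Becn1 measured 45.4 and 57.9 CPM in control, 48.2 and 53.1 in dexamethasone, and 76.6 and 91.1 in dexamethasone + EPC-EVs. Its libraries with vesicles were again the highest. Becn1 rose by 0.68 on the log2 scale against dexamethasone (SE 0.175, adjusted p = 0.00915, edgeR), a call lost without either dexamethasone library. Its log2 fold change of 0.65 against control was not called (adjusted p = 0.0564, edgeR). Becn1 shares 3104 of its 7065 exonic bases with Cntd1 on the other strand and Uvrag shares 1589 with Gm45187, also on the other strand. Atg14, the alternative partner of UVRAG in the complex, stood at 9.50 and 10.8 CPM with vesicles and 11.6 and 8.54 in dexamethasone. Neither it nor Pik3c3, Wipi1 or Wipi2, the last 2 of which read the lipid that the kinase makes, was called in any comparison as counted.

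Of the 6 conjugation genes, 1 rose and 2 fell against dexamethasone, where 20.9% of all genes rose and 18.9% fell. Atg4b, the protease that trims Atg8 proteins before conjugation, measured 14.8 and 15.7 CPM in control, 25.6 and 20.6 in dexamethasone, and 35.4 and 44.2 in dexamethasone + EPC-EVs. The 3 groups did not overlap. Its log2 fold change was 0.74 against dexamethasone (SE 0.234, adjusted p = 0.026, edgeR) and 1.33 against control (SE 0.288, adjusted p = 0.00801), and the former was lost in 5 of the 15 alternative settings, among them removal of the trend on GC content and length described below.

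Atg3, which transfers Atg8 proteins to lipid, and Atg12, a ubiquitin-like part of the ligase, fell by 0.66 and 0.81 against dexamethasone (edgeR, adjusted p = 0.0105 and 0.00418). Both were also called lower against control, by 0.94 and 0.87. With the GC and length trend removed Atg3 was at 0.06 against dexamethasone (adjusted p = 0.822, edgeR) and 0.05 against control (adjusted p = 0.882), so its direction turned. Atg5 and Atg16l1, the partners of ATG12 in the ligase, and Atg7, the activating enzyme, were called in none of the comparisons.

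The Atg8 family divides into the LC3 and GABARAP branches, and in the comparison with dexamethasone 3 of its 5 members rose, where 20.9% of all genes did, and none fell. Map1lc3a was no longer called with the GC and length trend removed, and Map1lc3b was then called lower (-0.45, adjusted p = 0.0246, edgeR). The study lists Map1lc3a and Atg5 as differentially expressed ferroptosis genes, with dexamethasone against control and with vesicles against dexamethasone. Its cut used an unadjusted p. Here Atg5 had log2 fold changes of -0.10 and 0.23 in these comparisons and was called in neither. Map1lc3a was not called in dexamethasone against control (0.24, adjusted p = 0.941, edgeR). Map1lc3a measured 3.58 and 3.78 CPM in control, 6.11 and 2.65 in dexamethasone, and 14.4 and 12.4 in dexamethasone + EPC-EVs. The libraries with vesicles were the highest, and control and dexamethasone overlapped. Map1lc3a rose by 1.56 on the log2 scale against dexamethasone (SE 0.455, adjusted p = 0.0175, edgeR) and 1.81 against control (SE 0.463, adjusted p = 0.0163), on counts of 18 to 42 in the 4 libraries without vesicles. Its log2 fold change against control was 0.10 with the GC and length trend removed (adjusted p = 0.893, edgeR), and that call was also lost without either library with vesicles.

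Gabarapl2 measured 7.004 and 3.78 CPM in control, 5.97 and 5.01 in dexamethasone, and 16.8 and 12.01 in dexamethasone + EPC-EVs. Its libraries with vesicles were also the highest. Gabarapl2 had a log2 fold change of 1.34 against dexamethasone (SE 0.386, adjusted p = 0.0163, edgeR) and 1.36 against control (adjusted p = 0.0563), on counts of 19 to 43 in the libraries without vesicles. Gabarap, the most abundant of the 5 by FPKM with vesicles, rose from 108 ± 4.63 CPM in control and 144 ± 0.306 with dexamethasone to 219 ± 15.6 with vesicles (SD, n = 2), a log2 fold change of 0.56 against dexamethasone and 0.97 against control, both called.

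Map1lc3b, the LC3 gene most often followed as a marker of autophagosomes, measured 128 and 91.2 CPM in control, 145 and 132 in dexamethasone, and 124.5 and 124 in dexamethasone + EPC-EVs. The libraries with vesicles lay below those with dexamethasone alone and within the range of control. Its log2 fold change against dexamethasone was -0.20 (SE 0.138, adjusted p = 0.276, edgeR) and against control 0.14 (adjusted p = 0.66). Gabarapl1, with a log2 fold change of 0.32 against dexamethasone (adjusted p = 0.103), was not called in any comparison. The calls in this family against dexamethasone were thus those of Map1lc3a, Gabarapl2 and Gabarap, and all were lost without dexamethasone replicate 2. Map1lc3a and Gabarapl2 were the least abundant of the 5 by FPKM in control, at 3.08 and 2.30.

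Of the 4 cargo receptors, which link ubiquitin-marked material to Atg8 proteins, Sqstm1 rose and Optn and Tax1bp1 fell against dexamethasone, 1 and 2 genes beside 20.9% and 18.9% of all genes. Sqstm1 measured 249.5 and 184 CPM in control, 283 and 278 in dexamethasone, and 406 and 388 in dexamethasone + EPC-EVs. The 3 groups did not overlap. Sqstm1 rose by 0.45 on the log2 scale against dexamethasone (SE 0.119, adjusted p = 0.0102, edgeR), a call lost without either dexamethasone library, and 0.82 against control (SE 0.198, adjusted p = 0.0128), which was 0.19 and not called with the GC and length trend removed (adjusted p = 0.393).

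Tax1bp1 measured 369 and 438.5 CPM in control, 352 and 359.9 in dexamethasone, and 196 and 210.1 in dexamethasone + EPC-EVs. Its libraries with vesicles were the lowest. It fell by 0.86 against dexamethasone (SE 0.123, adjusted p = 2.58e-04, edgeR) and by 1.04 against control (SE 0.181, adjusted p = 0.00315). It was at -0.16 and -0.078 in these comparisons, and no longer called, with the GC and length trend removed. Optn fell by 0.86 and 0.85 in the same comparisons (adjusted p = 0.00486 and 0.0276), and Nbr1 was called in none.

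Both transcription factor genes were highest with vesicles. Tfeb measured 2.28 and 5.18 CPM in control, 10.5 and 5.59 in dexamethasone, and 17.2 and 21.98 in dexamethasone + EPC-EVs. The 3 groups did not overlap, although dexamethasone replicate 2 exceeded control replicate 2 only slightly. The log2 fold change was 1.24 against dexamethasone (SE 0.369, adjusted p = 0.0197, edgeR), 2.36 against control (SE 0.501, adjusted p = 0.00756) and 1.11 in dexamethasone against control (SE 0.662, adjusted p = 0.556), on counts of 14 to 72 in the libraries without vesicles. Neither call held with the GC and length trend removed, when the values were 0.05 against dexamethasone (adjusted p = 0.927, edgeR) and 0.53 against control (adjusted p = 0.521).

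Tfe3 measured 44.5 and 29.3 CPM in control, 72.4 and 54.5 in dexamethasone, and 77.9 and 92.1 in dexamethasone + EPC-EVs. The groups again did not overlap. Only the comparison with control was called, at 1.15 (SE 0.262, adjusted p = 0.0101, edgeR), while the log2 fold changes were 0.38 against dexamethasone (adjusted p = 0.129) and 0.77 in dexamethasone against control (adjusted p = 0.363).

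At the lysosome, Ctsd, the aspartic protease cathepsin D, had the largest rise of the 36 genes as counted and Lamp2, whose product is a receptor for chaperone-mediated autophagy and a glycoprotein of the membrane, the largest fall. With the GC and length trend removed, the rises of Uvrag and Gabarapl2 against dexamethasone exceeded that of Ctsd, and the falls of Ulk1, Optn and Ctsb that of Lamp2. Because TFEB and TFE3 bind the E-box CACGTG, and strongly the longer TCACGTGA, the 250 bases before the transcription start (RefSeq, GRCm38.p6) of 4 members that hold the motif are shown, with CACGTG or TCACGTGA in capitals: Ctsd, which rose, Lamp1 and Mcoln1, which were not called, and Atg3, which fell.
Ctsd (chr7:142387828-142388077, minus strand): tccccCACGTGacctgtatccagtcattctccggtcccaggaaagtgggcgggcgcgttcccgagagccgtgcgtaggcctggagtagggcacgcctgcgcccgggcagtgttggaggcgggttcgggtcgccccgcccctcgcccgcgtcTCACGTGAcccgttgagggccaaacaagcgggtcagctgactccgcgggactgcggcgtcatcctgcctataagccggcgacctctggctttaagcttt
Lamp1 (chr8:13158911-13159160, plus strand): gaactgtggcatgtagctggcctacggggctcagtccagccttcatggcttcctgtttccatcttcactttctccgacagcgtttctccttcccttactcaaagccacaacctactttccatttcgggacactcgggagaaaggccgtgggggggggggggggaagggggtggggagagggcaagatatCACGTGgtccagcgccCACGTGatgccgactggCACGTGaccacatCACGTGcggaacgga
Mcoln1 (chr8:3500269-3500518, plus strand): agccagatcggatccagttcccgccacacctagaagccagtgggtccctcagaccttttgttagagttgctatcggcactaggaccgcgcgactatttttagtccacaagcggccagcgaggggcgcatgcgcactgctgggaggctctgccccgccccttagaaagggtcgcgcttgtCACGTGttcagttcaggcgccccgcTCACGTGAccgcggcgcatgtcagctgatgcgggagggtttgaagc
Atg3 (chr16:45158579-45158828, plus strand): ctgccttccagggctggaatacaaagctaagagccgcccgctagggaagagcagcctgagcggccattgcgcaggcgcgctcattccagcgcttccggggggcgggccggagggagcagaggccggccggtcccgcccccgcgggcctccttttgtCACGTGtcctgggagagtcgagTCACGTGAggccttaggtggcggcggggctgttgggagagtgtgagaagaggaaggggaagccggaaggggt

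In windows from 250 bases before to 50 bases after the start, CACGTG (a palindrome, so the same on both strands) was found in 8 of the 28 members with a window, 28.6%, against 8.09% of 27025 genes. These members were Atg14, Atg3, Atg5, Atg7, Ctsd, Ctsl, Lamp1 and Mcoln1. TCACGTGA, each match of which is also a match of CACGTG, was found in Atg3, Ctsd and Mcoln1, 10.7% against 1.13%, and its extension by a G before and a C after in none, against 0.37%. In the comparison with dexamethasone, 1 of the 8 members with CACGTG was higher, 2 were lower and 5 were not called, while of the 20 without it 8 were higher, 4 were lower and 8 were not called. Of all genes tested 20.9% were higher and 18.9% lower, and a difference between members with and without the motif was not tested. The matches describe these windows, and binding of a factor was not measured.

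Ctsd measured 96.4 and 42.0 CPM in control, 122 and 109 in dexamethasone, and 540.0 and 511 in dexamethasone + EPC-EVs. The 3 groups did not overlap, and the libraries with vesicles stood far above the other 4. The log2 fold change was 2.14 against dexamethasone (SE 0.13, adjusted p = 8.25e-07, edgeR), 2.87 against control (SE 0.346, adjusted p = 7.54e-04) and 0.72 in dexamethasone against control (SE 0.309, adjusted p = 0.431). Exons of Ctsd share 808 of 2351 bases with Gm49369 on the same strand.

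The cysteine protease genes moved opposite to Ctsd. Ctsb was at 1019 ± 196 CPM in control, 1191 ± 14.0 with dexamethasone and 764 ± 8.51 with vesicles added (SD, n = 2), and fell by 0.69 against dexamethasone (SE 0.108, adjusted p = 4.60e-04, edgeR). Ctsl was at 349 ± 111 CPM, 354 ± 49.3 and 216 ± 9.57 in the same order and fell by 0.76 (SE 0.136, adjusted p = 0.00109). Hexa, a subunit of the enzyme that degrades gangliosides, rose by 0.57 (SE 0.152, adjusted p = 0.011). Against control, Ctsl was lower by 0.74 and Hexa higher by 0.69, and Ctsb was not called (adjusted p = 0.0856). With the GC and length trend removed Hexa was at 0.07 against dexamethasone, no longer called, and turned to -0.096 against control (adjusted p = 0.728, edgeR) and Ctsl was at -0.29 (adjusted p = 0.428), and the call of Ctsl was also lost without control replicate 1 and without either library with vesicles.

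Lamp2 measured 671 and 792 CPM in control, 489 and 584 in dexamethasone, and 158 and 225 in dexamethasone + EPC-EVs. The 3 groups did not overlap and stood in descending order. Lamp2 fell by 1.53 against dexamethasone (SE 0.17, adjusted p = 4.18e-05, edgeR) and by 1.98 against control (SE 0.221, adjusted p = 5.83e-04), and by 0.45, not called, in dexamethasone against control (adjusted p = 0.361).

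Lamp1, the closest relative of Lamp2, measured 932 and 1029 CPM in control, 765 and 825 in dexamethasone, and 816 and 951 in dexamethasone + EPC-EVs. The dexamethasone libraries were lower than those of control, and those with vesicles overlapped with both. The log2 fold change was 0.11 against dexamethasone (SE 0.12, adjusted p = 0.514, edgeR) and -0.20 against control (adjusted p = 0.407). Mcoln1, the calcium channel of the lysosome, and Atp6v1h, a subunit of its proton pump, were not called in any comparison as counted. With the GC and length trend removed, Atp6v1h was called higher against dexamethasone (0.88) and control (1.07). Lamp1 was then called lower against control (-0.57, adjusted p = 0.0342, edgeR) and turned to -0.14, not called, against dexamethasone.

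Fold changes followed the GC content of the genes. GC content of the longest transcript ranged among the members from 37.6% in Atp6v1h and 38.7% in Lamp2 to 63.1% in Map1lc3a and 63.2% in Tfeb. Its Spearman correlation with the log2 fold change against dexamethasone was 0.54 over the 36 members and 0.49 over 13544 genes, a description of points that share the same libraries. The same correlation with length was -0.41 over the members and -0.084 over all genes. The trend over all genes on GC content and length was removed and the test was run again. Both were removed together, so their parts cannot be told apart. Then 15 members were called, 41.7% against 31.4% of all genes in that fit, 6 higher and 9 lower, of which 12 were among the 20 and all in the same direction. The 12 were Gabarap, Gabarapl2, Atg12, Ulk1, Rb1cc1, Becn1, Uvrag, Optn, Lamp2, Ctsb, Ctsd and Ctsl.

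Ctsd then had a log2 fold change of 1.57, Uvrag 1.69, Gabarapl2 1.59, Becn1 0.89, Ulk1 -1.16, Lamp2 -0.74 and Rb1cc1 -0.56. The calls of Map1lc3a (0.40, adjusted p = 0.518, edgeR with this trend removed), Tfeb, Atg9a, Atg4b (0.63, adjusted p = 0.059), Sqstm1 (0.03), Hexa (0.07), Tax1bp1 (-0.16) and Atg3 (0.06) were lost. Map1lc3b (-0.45), Wipi2 (-0.42) and Atp6v1h (0.88) were called instead. Against control 15 were called as well, 41.7% against 25.6% of all genes in that fit, of which 8 were among the 17, namely Gabarap, Atg4b, Rb1cc1, Uvrag, Optn, Tfe3, Lamp2 and Ctsd, and 7 were called instead: Gabarapl2 (1.70), Ulk2 (0.75), Becn1 (1.02) and Atp6v1h (1.07) as higher and Ulk1 (-0.93), Lamp1 (-0.57) and Ctsb (-0.54) as lower. The 9 whose calls were lost against control were Map1lc3a, Atg3, Atg12 (-0.42), Atg9a (0.75), Sqstm1, Tax1bp1, Tfeb, Ctsl and Hexa. Among those still called, Ctsd was at 2.03, Lamp2 at -0.92 and Rb1cc1 at -0.655. In every one of the 15 alternative settings, Ctsd, Uvrag, Lamp2, Rb1cc1, Ctsb, Ctsl and Atg12 were called against dexamethasone.

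**Figure D3:**
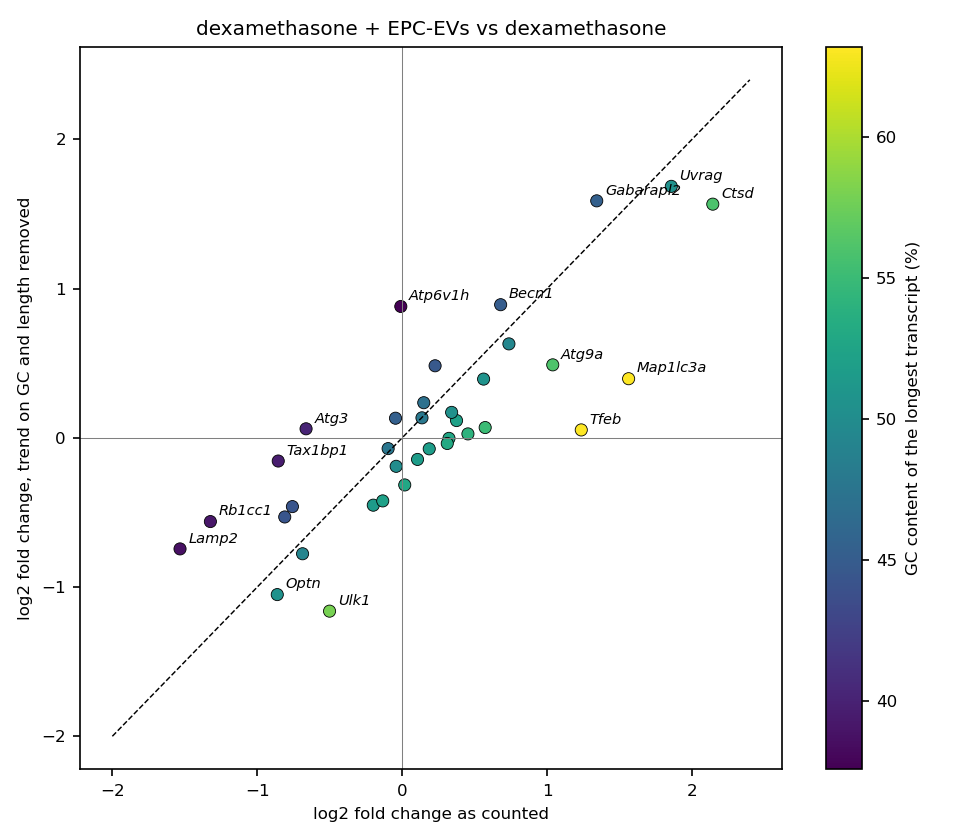
Log2 fold change of each member in dexamethasone + EPC-EVs against dexamethasone as counted (x axis) and after removal of the trend on GC content and length (y axis), coloured by GC content, with the dashed line marking equality. The GC-rich Tfeb and Map1lc3a dropped from 1.24 and 1.56 to 0.05 and 0.40, the GC-poor Lamp2 and Rb1cc1 moved up from -1.53 and -1.32 to -0.74 and -0.56, and Ctsd and Uvrag stayed above 1.5.

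Other genes of the pathway were described by lists. Of 36 other autophagy genes, 6 were higher and 6 lower in dexamethasone + EPC-EVs than in dexamethasone, 16.7% each way against 20.9% and 18.9% of all genes, with a median log2 fold change of 0.16 against 0.01 over all genes. The largest changes with a mean of at least 10 CPM were those of Pink1 and Bnip3, in opposite directions. Pink1, a kinase that marks damaged mitochondria, went from 24.1 ± 4.05 to 71.9 ± 10.4 CPM and Bnip3, a mitophagy receptor, from 144 ± 29.9 to 36.3 ± 10.5 CPM (SD, n = 2), log2 fold changes of 1.53 and -2.04. Without dexamethasone replicate 1 the lower genes numbered 3, and with the GC and length trend removed the list had 9 higher and 7 lower genes.

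Of 39 other lysosomal hydrolases and activators tested, 15 were higher and 3 lower, beside 20.9% and 18.9% of all genes, and the median log2 fold change was 0.38. Smpd1, acid sphingomyelinase, went from 29.1 ± 2.09 to 99.9 ± 14.0 CPM and Ctso, a cysteine protease, from 22.8 ± 5.87 to 6.75 ± 2.77 CPM (SD, n = 2). This predominance of higher genes was lost with the GC and length trend removed, when 6 were higher and 9 lower, and the counts were 7 and 1 without dexamethasone replicate 2, 9 and 4 without dexamethasone replicate 1, and 15 and 5 without dexamethasone + EPC-EVs replicate 2.

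Of 15 other subunits of the lysosomal proton pump, the V-ATPase, 9 were higher and 1 was lower, with a median of 0.70. For this list and the membrane proteins below, the shares of all genes were 20.9% higher and 18.9% lower. Atp6v1f went from 20.9 ± 2.34 to 49.7 ± 0.592 CPM and Atp6v1d from 109 ± 4.38 to 79.3 ± 3.57 CPM (SD, n = 2). With the GC and length trend removed 9 were higher and 0 lower, and without dexamethasone replicate 2 the counts were 5 and 0. Atp6v1d was not called either without dexamethasone replicate 1 or without dexamethasone + EPC-EVs replicate 1. Other lysosomal membrane proteins, 16 tested, held 5 higher genes, led by the chloride exchanger Clcn7 (1.65), and 1 lower, the amino acid sensor Slc38a9 (-1.05). The 5 and 1 became 3 and 0 without dexamethasone replicate 2, 3 and 1 without dexamethasone replicate 1, and 6 and 0 without dexamethasone + EPC-EVs replicate 1, and the call of Slc38a9 was lost with the GC and length trend removed, as was that of Atp6v1d.

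Of 27 genes of mTORC1 and its lysosomal regulators, 12 were higher and 7 lower, beside 20.9% and 18.9% of all genes, with a median of 0.40. The list was led by Akt1s1, an inhibitory subunit of mTORC1 (1.98), and Prkaa2, a catalytic subunit of AMPK (-1.59). The higher genes numbered 8 with the GC and length trend removed, without either dexamethasone library and with all 6 libraries in 1 fit. Shares of all genes fell in these fits too: the higher and lower genes were 14.9% and 16.5% of all with the trend removed, 14.5% and 11.5% without dexamethasone replicate 1, 12.1% and 10.1% without its replicate 2, and 15.2% and 15.3% with all 6 libraries. They were 18.2% and 16.6% without dexamethasone + EPC-EVs replicate 1 and 18% and 16.1% without its replicate 2. Against control, where 19.1% of all genes were higher and 17.2% lower, the higher and lower counts were 8 and 5 for other autophagy genes, led by Pink1 (2.42) and Bnip3 (-1.83), and 13 and 4 for hydrolases, led by Gaa, acid alpha-glucosidase (1.97), and Ctso (-1.90). They were 7 and 1 for the V-ATPase, led by Atp6v1f (1.65) and Atp6v1d (-0.98), 3 and 1 for membrane proteins, led by the cystine transporter Ctns (1.93) and Slc38a9 (-1.24), and 10 and 7 for mTORC1, led by Akt1s1 (2.49) and Prkaa2 (-1.92).

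In the same order of lists, these counts against control became 5 and 4, 8 and 4, 6 and 1, 2 and 0, and 6 and 3 without dexamethasone + EPC-EVs replicate 2. Without its replicate 1 they were 6 and 3, 12 and 3, 6 and 1, 2 and 0, and 7 and 4, and without control replicate 1 the membrane proteins had 3 higher and 3 lower. With the GC and length trend removed they were 4 and 6, 6 and 7, 9 and 0, 2 and 0, and 6 and 4, and Bnip3, Ctso, Atp6v1d and Slc38a9 were no longer called. Of all genes, 13.3% were higher and 11.3% lower without dexamethasone + EPC-EVs replicate 2, 13.5% and 11.6% without its replicate 1, 24.6% and 18.2% without control replicate 1, and 12.3% and 13.3% with the trend removed. In dexamethasone against control, edgeR called 0 genes of these 5 lists, while without control replicate 1, when 9.25% of all genes were higher and 6.8% lower, the higher and lower counts in the same order were 6 and 0, 7 and 1, 5 and 1, 0 and 2, and 5 and 2. With all 4 libraries, 9 hydrolases, 3 V-ATPase subunits, 2 other autophagy genes, 2 mTORC1 genes and 1 membrane protein had an unadjusted p under 0.05.

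**Figure D4:**
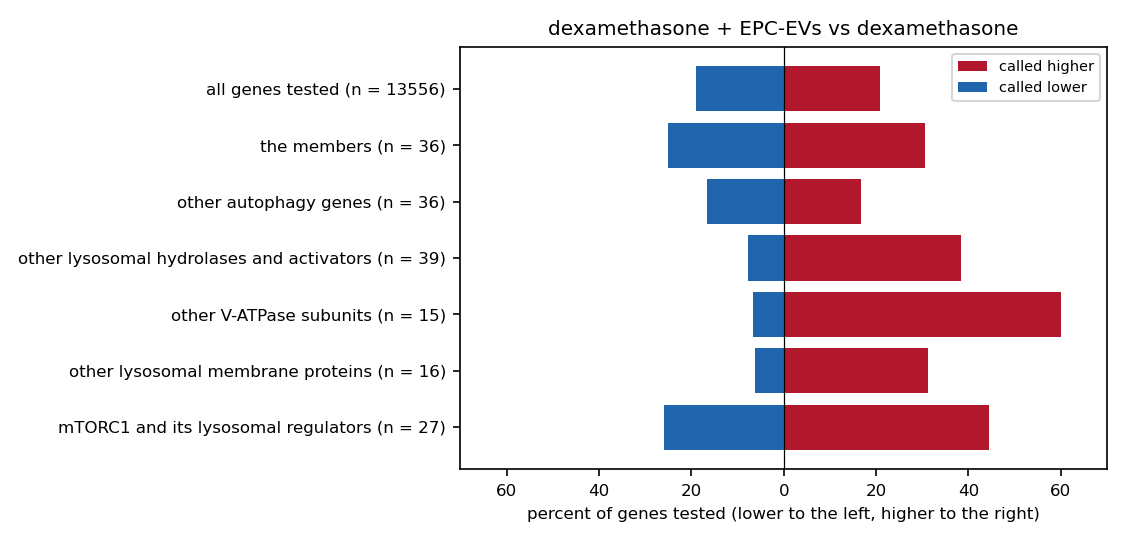
Percent of genes called higher (red, to the right) and lower (blue, to the left) in dexamethasone + EPC-EVs against dexamethasone, by edgeR at an adjusted p under 0.05, for all genes tested, the 36 members and 5 other lists. All genes stand at 20.9% and 18.9%, the members at 30.6% and 25%, and the V-ATPase subunits have the longest bar to the right, 9 of 15.

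Transcript values were at hand for the 5 members on chromosome 1, Rb1cc1, Atp6v1h, Atg9a, Atg16l1 and Atg4b, as the FPKM of annotated transcripts and of transcripts assembled from the reads. No transcript of theirs was called in any comparison by limma on log2(FPKM + 1), with 72, 75 and 74 tested, where 0.0903%, 0.0142% and 0.0981% of all transcripts tested were called. At an unadjusted p under 0.05 there were 0 in dexamethasone against control, where 5.21% of all transcripts were, and 13 in each of the comparisons with vesicles, 17.3% against 19.1% of all transcripts in the comparison with dexamethasone and 17.6% against 19.3% in that with control.

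Of 4 annotated transcripts of Atg9a with 16 exons, ENSMUST00000040689.14 was chosen after its values were seen. It was listed at 0 in all 4 libraries without vesicles and at 4.91 and 10.7 FPKM with them. It passed the filter on level only through the libraries with vesicles, so no test of it is given. A listed 0 does not show absence, since all 8 transcripts of Atg9a were at 0 in control replicate 1, where the gene had 98 counts. In contrast to the gene count, the transcript of Rb1cc1 with 24 exons, ENSMUST00000027040.12, stood at 3.54 and 3.68 FPKM in control, 4.63 and 2.94 in dexamethasone, and 3.605 and 3.18 in dexamethasone + EPC-EVs. Its libraries overlapped between all groups. The 14 annotated transcripts of Rb1cc1 together summed to 15.46 and 15.05 FPKM in control, 20.85 and 18.52 in dexamethasone, and 9.70 and 12.77 in dexamethasone + EPC-EVs. This sum was lowest in the libraries with vesicles, as was the gene count.

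The transcripts of these genes differed in make-up between the libraries. There were 45 assembled single-exon transcripts that lay outside the annotated exons of every gene on chromosome 1. They summed to 77.5 and 90.2 FPKM in control, 74.1 and 95.7 in dexamethasone, and 33.0 and 38.9 in dexamethasone + EPC-EVs. They made up between 54.1% and 67.6% of the summed FPKM of the 5 genes in the libraries without vesicles and 36.1% and 34.5% in those with them. The 48 annotated transcripts made up 25.0% to 40.9% and 58.5% and 60.5%. The part of this difference in the gene counts was not tested.

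**Figure D5:**
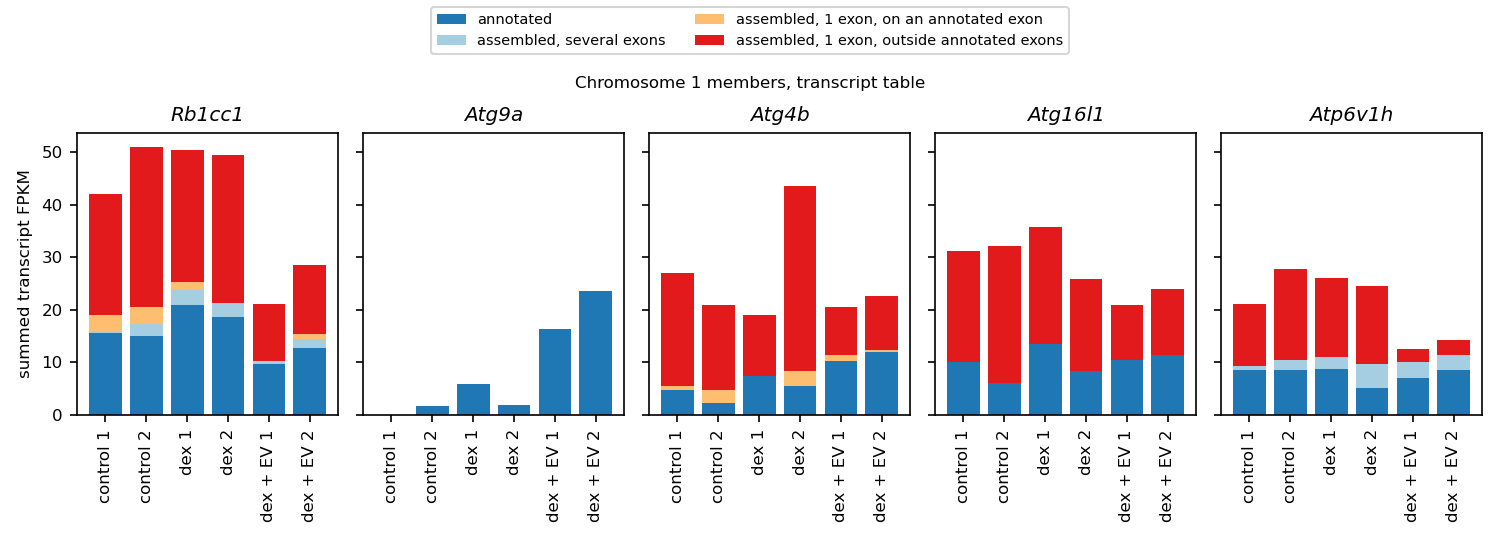
Summed FPKM of the transcripts of the 5 members on chromosome 1 in each library (dex, dexamethasone; EV, EPC-EVs), stacked by class: annotated, assembled with several exons, and assembled with 1 exon on or outside annotated exons. The red class, single exons outside annotated exons, is shorter with vesicles in the 4 genes that have it, Rb1cc1, Atp6v1h, Atg16l1 and Atg4b, and Atg9a consists of annotated transcripts, with its tallest bars in the libraries with vesicles.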

How the data were processed

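RNA-seq was done on 6 libraries, 2 per group, from a mouse osteoblast precursor line. The authors aligned reads to GRCm38 with HISAT2, counted them on genes with HTSeq 0.6.1 and deposited the counts without normalization. Whether the counting used strand is not given in the sources used here, so counts of the 16 members whose exons overlap another gene are less certain. The deposited gene FPKM equal count over length and total within 0.1% for 18447 of 18447 genes checked. Transcript FPKM, for chromosome 1, are the authors' StringTie estimates.

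Members, gene lists and tests were chosen with earlier results of these data known. For each comparison, edgeR 4.0.16 (R 4.3.3) was run on the counts of its 4 libraries (TMM, filterByExpr, robust quasi-likelihood test), and p-values were adjusted by the Benjamini-Hochberg method over all genes tested. Each standard error was computed as the size of the log2 fold change over the square root of F. Transcripts with a mean of at least 0.5 FPKM were tested with limma 3.58.1. Symbols were annotated with GENCODE vM21, and 28 members had a promoter window.

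Values in every library are given for members called with a log2 fold change beyond 1 and for Map1lc3a, Map1lc3b, Sqstm1, Becn1, Ulk1, Tfeb, Lamp1 and Ctsd. From each list the called gene with the largest change in each direction and a mean of at least 10 CPM over the groups compared was named. Other settings were 2 other normalizations, omission of mitochondrially encoded genes, DESeq2 1.42.0, other filters, dispersions without robust estimation, all 6 libraries in 1 fit, a replicate block, thinning to 5146760 counts, removal of the trend on GC content and length (loess, span 0.4) and omission of each library.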

Additional observations from a re-analysis of the deposited data

How the results depend on the processing

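Of 45 recounts of called members over 3 comparisons and 15 settings, 42 stayed within 1.5 times the count reported. With each library left out, the count ranged from 0 to 11 in dexamethasone against control (11 without control replicate 1), from 8 to 18 in dexamethasone + EPC-EVs against dexamethasone (8 without dexamethasone replicate 2) and from 9 to 19 against control (9 without dexamethasone + EPC-EVs replicate 2). The cause was not tested. For transcripts the same range was 0 to 1 against control, with 1 without control replicate 1.

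The replicate numbers did not pair the libraries, since the deviations of same-numbered libraries correlated at 0.06, 0.01 and 0.01. With the number as a block, 0, 20 and 18 members were called in the 3 comparisons, and 0, 4 and 5 of their transcripts.

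Recomputed values, 538 in all, were tallied for the 8 genes fixed by name in all 3 comparisons and for other members in the comparisons that called them with a log2 fold change beyond 1, and 482 kept their direction and their side of the threshold. DESeq2 gave no adjusted p for Map1lc3a and Tfeb in dexamethasone against control. Among these values the direction turned for 5 members in 13 values. Over all 36 members, the direction turned in at least 1 setting for 17 in dexamethasone against control, 12 in dexamethasone + EPC-EVs against dexamethasone and 13 against control, of which 0, 1 (Atg3) and 2 (Atg3 and Hexa) were called. With the GC and length trend removed, Map1lc3a (0.24) became -0.31 and Becn1 (-0.03) 0.12 in dexamethasone against control, Lamp1 (0.11) became -0.14 against dexamethasone, and Ulk1 (0.03) became -0.93 and Map1lc3b (0.14) -0.19 against control. Ulk1 was also -0.030 with upper quartile factors and -0.073 with thinned counts. With each library left out, the values ranged from -0.48 to 0.73 for Map1lc3a and from -0.19 to 0.16 for Becn1 in dexamethasone against control, and from -0.25 to 0.45 for Ulk1 and from -0.066 to 0.44 for Map1lc3b in dexamethasone + EPC-EVs against control.

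Tfeb, Map1lc3a and Gabarapl2 had counts of 14 to 72 in the libraries without vesicles, so that their fold changes rest on few reads.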
